A study of Mus musculus with 8 samples.

Results

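The 10 genes described here form the programme by which blood progenitors are primed for the B lymphocyte lineage: the transcription factor genes Ikzf1, Ebf1 and Pax5, the cytokine receptor gene Il7r, the recombination genes Rag1 and Dntt, the receptor signalling genes Cd79a, Cd79b and Blnk, and the surface marker gene Ly6d. They were chosen by name, with no measured value in the rule, and all 10 were found among the 26146 gene symbols of the count table. Bulk RNA sequencing of polyA RNA was done on sorted Lin-Sca1+Kit+ (LSK) cells, a fraction that holds haematopoietic stem cells and multipotent progenitors. In 4 mice (Jmjd6 KO) a Cre restricted by cell type had removed floxed Jmjd6, which encodes a JmjC-domain oxygenase, from haematopoietic lineages, and 4 mice were wild type, with 1 library from each mouse. The labels repeat the deletion protocol for all 8 samples, and they name neither the Cre line, the tissue, the ages nor any Cre or floxed allele in the wild type mice.

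B cell development starts within multipotent progenitors that still make several lineages. Ikaros (Ikzf1) and the E proteins open lymphoid genes, the interleukin-7 receptor carries survival and growth signals, and EBF1 and then PAX5 switch on and fix the B cell programme. RAG1 with RAG2 cuts the immunoglobulin genes, terminal transferase (Dntt) adds bases at the joints, and the CD79A and CD79B chains with the adaptor BLNK pass on the signal of the assembled receptor. LY6D marks the lymphoid progenitors that lean to the B lineage, and low transcription of such genes before commitment is called priming.

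Total counts per library ranged from 9344779 to 15079960, so that 1 count was worth 0.0631 to 0.11 CPM (a gene's counts relative to its library's total, scaled by TMM). Jmjd6 itself averaged 58.6 ± 5.93 CPM in the wild type mice and 28.7 ± 1.41 in the KO mice (SD, n = 4 each), without overlap of the groups (log2 fold change -1.03, adjusted p = 0.0381 by edgeR). That call was lost without any single library other than KO replicate 3, at an adjusted p of up to 0.254 by edgeR. The LSK genes Kit, Ly6a, Cd34, Flt3, Hlf, Mecom, Meis1, Hoxa9, Cd48 and Slamf1 were present in every library. Their summed level was 3020 to 3730 CPM in wild type and 2970 to 3320 CPM in KO, but single genes differed. Cd48 was higher in KO without overlap, at 218 to 269 CPM against 35.2 to 211 CPM in wild type. Slamf1 was too, at 9.25 to 11.9 CPM against 3.98 to 9.04 CPM. Hlf was lower in KO without overlap, at 118 to 161 CPM against 178 to 276 CPM. Kit, Ly6a, Cd34, Flt3, Mecom and Hoxa9 overlapped, and in Meis1 the groups met at 304 CPM. Over all tested genes 4.19% did not overlap in either direction. Wild type replicate 4 and KO replicate 3 had Xist at 1550 and 893 CPM and 0 Y-linked counts, whereas the other 6 libraries had Xist at no more than 4.93 CPM and at least 3660 Y-linked counts. Wild type replicate 1 stood apart in the sum of 8 neutrophil genes, with 4180 CPM where no other wild type library passed 995 CPM. Most of this sum was Mpo at 3290 CPM and Elane at 785 CPM. Lcn2, S100a8 and S100a9 were also highest in that library, whereas Camp, Ngp and Ltf lay inside the range of the other wild type libraries. The sum of erythroid genes was 464 CPM in wild type replicate 1, where no other wild type library passed 79.2 CPM.

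The comparison asked whether loss of Jmjd6 altered the levels of B lineage priming genes in LSK cells. Ly6d, Blnk and Cd79b were higher in the KO libraries, with log2 fold changes of 1.45, 0.79 and 0.53, and these were the 3 members with an unadjusted p under 0.05. The tested transcription factor, interleukin-7 receptor and recombination genes had log2 fold changes from -0.20 for Ikzf1 to 0.26 for Rag1. The confidence intervals were wide for Ebf1, from -1.47 to 1.59, and for Rag1, from -1.13 to 1.66. Neither Ebf1 nor Rag1 can therefore be placed near its wild type level. Of the 10 members 9 passed the filter on low counts, and Pax5, with 9 counts in all libraries together, did not. None of the 9 passed an adjusted p of 0.05 over the 13439 genes tested by edgeR's quasi-likelihood test, in which 0.0595% of all genes passed. The unadjusted p was under 0.05 in 3 of 9 members, against 6.06% of all genes. All 3 were higher in KO, a direction that 2.78% of all genes took at this threshold, and 0 were lower, against 3.28%. By DESeq2 and by limma voom 0 members passed after adjustment, where 0.473% and 0.231% of all genes did. The members were selected with earlier results of these data known, so their share is a description and not a test. In bulk RNA, a change in the fraction of primed cells and a change in transcripts per cell cannot be told apart.

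**Figure D1:**
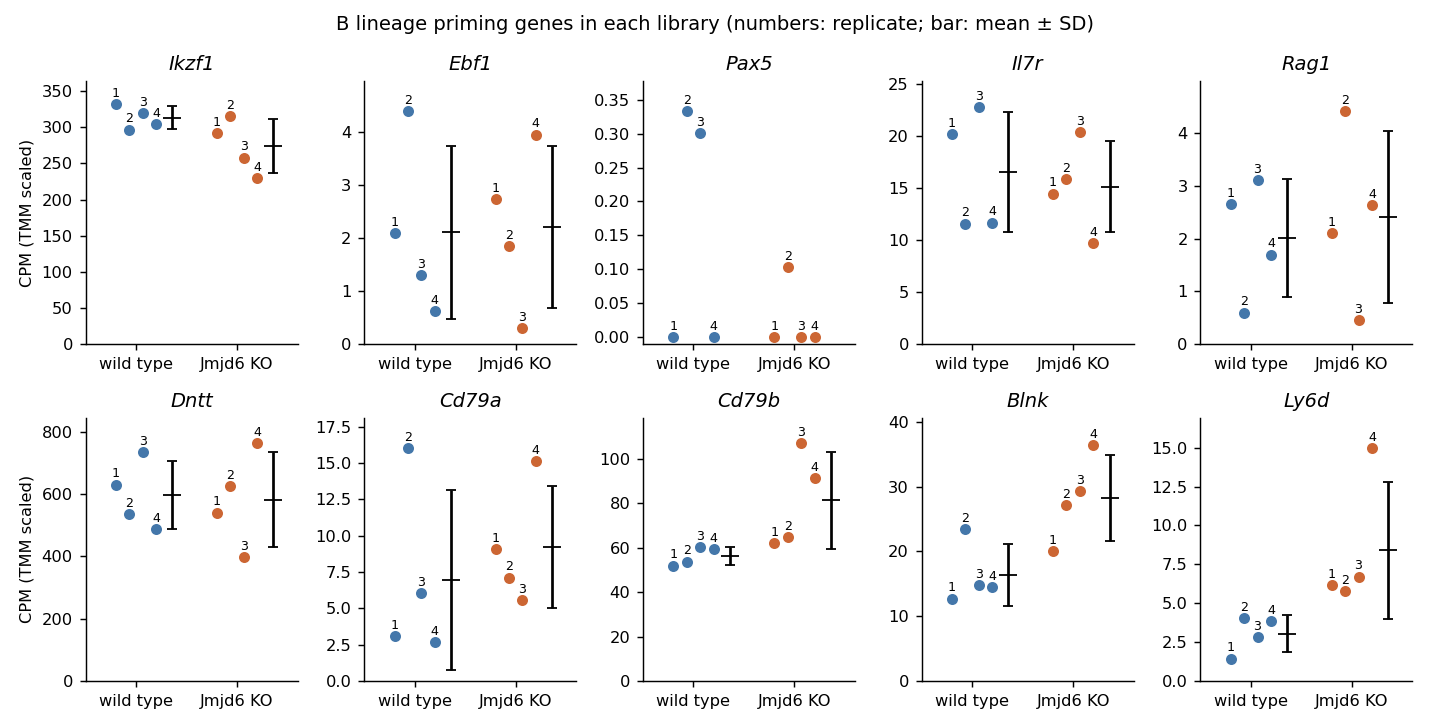
Level of each member in each library, in TMM-scaled CPM (vertical axes start at 0, except for Pax5, where a margin shows the points at 0). Points are libraries with their replicate number, and the black bar is the mean ± SD of 4 libraries, left out for Pax5; all KO points of Ly6d and Cd79b lie above all wild type points, and wild type replicate 2 and KO replicate 4 are highest in Ebf1 and Cd79a.

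**Figure D2:**
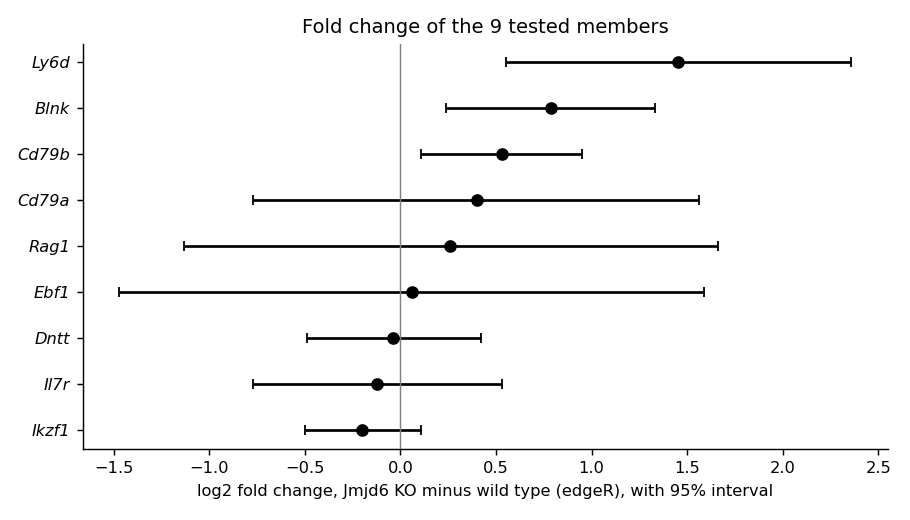
Log2 fold change (horizontal axis, Jmjd6 KO minus wild type) of the 9 tested members from edgeR, with its 95% interval. The intervals of Ly6d, Blnk and Cd79b lie above 0, before any adjustment for the number of genes tested, and those of the other 6 members hold 0.

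Among the transcription factors, Ikzf1, which encodes the zinc finger protein Ikaros, was the most abundant in LSK cells. It lies on chromosome 11 from 11685003 to 11772926 (mm10, plus strand). Wild type replicates 1 to 4 held 332, 297, 320 and 305 CPM, and KO replicates 1 to 4 held 292, 316, 258 and 230 CPM; all values per library follow this order. The 2 lowest values were KO replicates 4 and 3, while KO replicate 2 lay inside the wild type range, so the groups overlapped. The log2 fold change was -0.20, between -0.50 and 0.11 at 95% (adjusted p = 0.833 by edgeR). It was -0.12 without KO replicate 4 and -0.10 by limma voom.

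Ebf1, the pioneer factor of B lineage specification, was close to the limit of detection in some mice. The gene lies on chromosome 11 from 44617317 to 45008091 (plus strand). It had 4 to 66 counts per library. Wild type mice gave 2.10, 4.39, 1.31 and 0.631 CPM, and KO mice gave 2.73, 1.85, 0.305 and 3.95 CPM. The highest library was 14.4 times the lowest, and the highest and the lowest were of different genotypes. The means were 2.11 ± 1.64 and 2.21 ± 1.53 CPM (wild type, then KO, SD, n = 4), a log2 fold change of 0.06. Its 95% interval ran from -1.47 to 1.59, so a change of 2-fold either way was not detectable at this spread (adjusted p = 0.991 by edgeR). The value moved with single mice. Leaving out wild type replicate 2 gave 0.74, leaving out KO replicate 3 gave 0.43, leaving out KO replicate 4 gave -0.39, and limma voom on all mice gave 0.51.

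Pax5, the factor that commits cells to the B lineage, was near 0 throughout. Its gene lies on chromosome 4 from 44524757 to 44710487 (minus strand). There were 5 counts in wild type replicate 2, 3 in wild type replicate 3, 1 in KO replicate 2 and 0 in the other 5 libraries. The ratio of KO to wild type was 0.132, with a 95% exact interval from 0.00298 to 0.988 that covers counting error only and not the spread between mice. All 8 wild type counts came from 2 of 4 mice. Pax5 was not in the main test, and DESeq2, run without the filter on low counts, gave it an unadjusted p of 0.289.

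Il7r encodes the alpha chain of the interleukin-7 receptor (chromosome 15, 9505788 to 9530176, minus strand). Il7r stood at 20.2, 11.6, 22.8 and 11.7 CPM in wild type, and KO mice gave 14.5, 15.9, 20.4 and 9.76 CPM. The wild type libraries fell into a higher and a lower pair, and 3 of 4 KO libraries lay between the wild type extremes. The means were 16.6 ± 5.79 and 15.2 ± 4.4 CPM, with a log2 fold change of -0.12 and a 95% interval from -0.77 to 0.53 (adjusted p = 0.945 by edgeR). In the 6 libraries with Y-linked counts the log2 fold change was -0.44 (adjusted p = 0.91 by edgeR), and over all alternatives the adjusted p ranged from 0.837, by limma voom, to 0.999.

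Dntt and Rag1, whose products act at the same step of antigen receptor assembly, differed widely in level, and the sequences before their starts are shown to set a member of high and a member of low mRNA level side by side. They are the 250 bases before the RefSeq start (GRCm38.p6, the build that mm10 names), written 5′ to 3′ on the strand of the gene. The window of Rag1 is chr2:101649533-101649782 on the minus strand and that of Dntt is chr19:41029025-41029274 on the plus strand. Capitals mark matches, on either strand, to the E box CAGGTG bound by E proteins, to TGGGAA, the core of Ikaros family sites, or to CCCNNGGG, the core of EBF family sites. These motifs do not overlap one another in the windows shown.
Rag1: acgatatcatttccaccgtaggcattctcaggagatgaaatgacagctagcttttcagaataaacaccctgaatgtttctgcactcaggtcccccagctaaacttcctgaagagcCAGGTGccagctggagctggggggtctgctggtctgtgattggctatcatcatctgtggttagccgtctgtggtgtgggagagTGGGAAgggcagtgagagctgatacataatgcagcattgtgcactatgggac
Dntt: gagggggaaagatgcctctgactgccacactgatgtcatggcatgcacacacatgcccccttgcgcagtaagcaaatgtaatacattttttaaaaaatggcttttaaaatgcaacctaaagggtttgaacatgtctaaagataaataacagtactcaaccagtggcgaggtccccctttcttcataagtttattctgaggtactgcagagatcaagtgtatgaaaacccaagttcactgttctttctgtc
The Rag1 window held 1 E box, 135 bases before the start, and 1 Ikaros family match, 52 bases before it, and the Dntt window held none of the 3 motifs. Over 32851 RefSeq windows of this length, 17.2% held the E box, 21.6% the Ikaros family match and 11.8% the EBF family match, so these matches are a description only. RefSeq windows were matched for 8 of the 10 members, all but Cd79b and Ly6d.

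Dntt lies on chromosome 19 from 41029275 to 41059525 and Rag1 on chromosome 2 from 101638282 to 101649501. Dntt was the most abundant member, and its 8 values were 630, 535, 735 and 487 CPM (wild type) and 540, 626, 398 and 764 CPM (KO). The 2 extremes were both KO libraries, replicates 3 and 4. Its means of 597 ± 110 and 582 ± 154 CPM gave a log2 fold change of -0.04, with a 95% interval from -0.49 to 0.42 (adjusted p = 0.978 by edgeR).

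Rag1 held 6 to 43 counts per library. Wild type mice gave 2.65, 0.599, 3.11 and 1.70 CPM of Rag1, and KO mice gave 2.11, 4.42, 0.458 and 2.63 CPM. Each genotype had 1 library below 1 CPM, wild type replicate 2 and KO replicate 3. The log2 fold change of 0.26 had a 95% interval from -1.13 to 1.66 (adjusted p = 0.945 by edgeR), and it was 0.79 without wild type replicate 1 and KO replicate 3 together. Omitting 1 mouse brought it to -0.19 (KO replicate 2), -0.05 (wild type replicate 2), 0.43 (wild type replicate 1), 0.56 (wild type replicate 3) or 0.62 (KO replicate 3). In Rag1 80 exon bases are shared with B230118H07Rik on the same strand, so counts of the 2 genes may not be fully separate.

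Ly6d gave the largest difference of the members. It encodes a small surface protein anchored in the membrane by a lipid, and lies on chromosome 15 from 74762056 to 74763620 (minus strand). In wild type Ly6d stood at 1.44, 4.06, 2.81 and 3.85 CPM, from 13 to 61 counts, and in KO at 6.16, 5.76, 6.71 and 15 CPM, from 56 to 194 counts. Every KO library lay above every wild type library, which was so in 2.08% of all tested genes, while 4.19% did not overlap in either direction. The means were 3.04 ± 1.20 and 8.41 ± 4.43 CPM, a 2.73-fold difference (log2 fold change 1.45, SE 0.415, 95% interval 0.55 to 2.36). The unadjusted p was 0.00455, rank 113 of 13439 genes, which adjustment over all genes brought to 0.541 (edgeR). DESeq2 gave an adjusted p of 0.084 and limma voom one of 0.228. KO replicate 4 was far above the other 3 KO libraries, and without it the log2 fold change was 1.01 (adjusted p = 0.953 by edgeR).

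Blnk encodes the adaptor that links the pre-B cell receptor to its downstream kinases and lipases (chromosome 19, 40928927 to 40994535, minus strand). Blnk stood at 12.7, 23.4, 14.8 and 14.5 CPM in wild type, and the KO mice gave 20.1, 27.2, 29.3 and 36.4 CPM. The groups overlapped through wild type replicate 2 alone, which stood above KO replicate 1. The means were 16.3 ± 4.80 and 28.3 ± 6.72 CPM, a 1.72-fold difference. The log2 fold change was 0.79 with an SE of 0.25 and an unadjusted p of 0.0086 (adjusted p = 0.673 by edgeR). Without wild type replicate 2 the log2 fold change was 1.01 (adjusted p = 0.467 by edgeR). DESeq2 and limma voom gave adjusted p of 0.254 and 0.252.

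Cd79b and Cd79a encode the paired signalling chains of the B cell receptor, and they differed in pattern. Cd79b (chromosome 11, 106311341 to 106314762, minus strand) held 51.9, 53.7, 60.4 and 59.3 CPM in wild type, and the KO mice gave 62.0, 64.7, 107 and 91.4 CPM. The wild type libraries were tight, with a coefficient of variation of 7.37% against 26.7% in KO, and all KO libraries lay above them, KO replicates 1 and 2 only narrowly. The log2 fold change was 0.53 (SE 0.193, unadjusted p = 0.0179, adjusted p = 0.772 by edgeR). It was 0.37 without KO replicate 3, 0.33 without wild type replicate 1 and KO replicate 3 together, 0.39 in the 6 libraries with Y-linked counts and 0.23 by limma voom. The unadjusted p by limma voom was 0.131, and that by edgeR was 0.0961 and 0.0618 in these sets of 6 libraries.

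The stretch before Cd79a is shown because Cd79a is a known direct target of EBF1 and E proteins, and both genes peaked in the same libraries. It covers the 134 bases of the RefSeq window that lie before the first annotated exon base, chr7:24897247-24897380 (GRCm38.p6, plus strand), with the E box CAGGTG in capitals.
Cd79a: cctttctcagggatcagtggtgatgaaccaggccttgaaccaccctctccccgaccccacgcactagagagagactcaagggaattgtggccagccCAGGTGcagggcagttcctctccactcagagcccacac
The E box starts 154 bases before the RefSeq start, and no EBF family match CCCNNGGG was found in the 250 bases before it. Only exact matches were searched for, so near matches, such as ctcaaggg in the stretch shown, are not marked. The absence of an exact match says nothing of EBF1 binding. The window of Blnk also held 1 E box, 160 bases before its start, but all 250 bases of that window lie in annotated exons.

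Cd79a (chromosome 7, 24897381 to 24902197) stood at 3.09, 16.0, 6.03 and 2.65 CPM in wild type, and the KO mice gave 9.06, 7.10, 5.57 and 15.1 CPM. Wild type replicate 2 and KO replicate 4 were the 2 highest libraries, and the other 3 wild type libraries lay below all but 1 of the KO libraries. The means of 6.95 ± 6.24 and 9.21 ± 4.18 CPM gave a log2 fold change of 0.40 with a 95% interval from -0.77 to 1.56 (adjusted p = 0.897 by edgeR). The value depended on these libraries: it was 1.24 without wild type replicate 2 (unadjusted p = 0.0146, adjusted p = 0.83 by edgeR) and 0.05 without KO replicate 4. It was 0.12 without wild type replicate 4 and 0.18 without wild type replicate 1.

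The same 2 libraries led in another early B cell gene. Ebf1 was highest in wild type replicate 2 and next in KO replicate 4, as was Cd79a. Vpreb1, a surrogate light chain gene of the pre-B cell receptor, stood at 13.4 CPM in wild type replicate 2 and 14.3 CPM in KO replicate 4, where no other library passed 8.64 CPM. Blnk and Ly6d were likewise highest within each genotype in these libraries. Il7r and Rag1 did not share this order, with wild type replicate 2 the lowest wild type library of both. Nor did Ikzf1, Cd79b and Dntt. Ikzf1 was lowest within each genotype in wild type replicate 2 and KO replicate 4, at 297 and 230 CPM. Cd79b was highest in replicate 3 of each genotype, and Dntt in wild type replicate 3 and KO replicate 4. These orders describe 8 libraries, and the genes were set side by side after their values were seen.

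**Figure D3:**
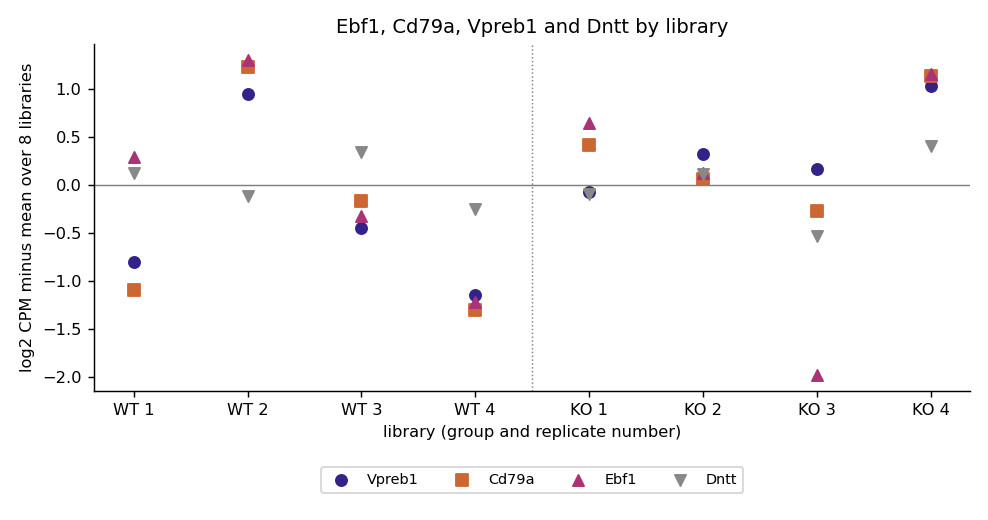
Log2 CPM of Ebf1, Cd79a, Vpreb1 and Dntt in each library (horizontal axis), each gene centred on its mean over the 8 libraries. Ebf1, Cd79a and Vpreb1 are all above their means in wild type replicate 2 and KO replicate 4, 1 library of each genotype.

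Likeness of pattern was measured by the root mean square difference of centred log2 CPM over the 8 libraries. Each member was compared with the tested genes whose SD was at least that of the member divided by 1.5. The gene most like Cd79a was Vpreb1, at 0.31. Cd79b was closest to Tnfrsf13b, a receptor gene of the TNF receptor superfamily, at 0.07, Blnk to Carhsp1 at 0.15 and Ly6d to Hdhd3 at 0.40. Ebf1 was closest to Capn1 at 0.42, Rag1 to Itgad at 0.31, Il7r to Gm6445 at 0.14, Dntt to Gm9800 at 0.07 and Ikzf1 to Zrsr2 at 0.05. A smaller value means a closer pattern, and genes that vary little give small values.

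Levels of different members were compared per kilobase of exon. In wild type, Dntt stood at 280 CPM per kb, Ikzf1 at 56.3, Cd79b at 39.3, Blnk at 7.77, Cd79a at 4.77, Il7r at 4.69, Ly6d at 4.09, Ebf1 at 0.353, Rag1 at 0.306 and Pax5 at 0.0197 CPM per kb. Neighbours from Blnk to Ly6d, and Ebf1 and Rag1, differed by less than the SD of the more variable gene. In KO, Cd79b at 56.8 CPM per kb stood beside Ikzf1 at 49.1, and Ly6d at 11.3 stood between Blnk at 13.5 and Cd79a at 6.32, each step again smaller than 1 SD of the more variable neighbour. Dntt, at 273 CPM per kb, was again the most abundant and Pax5, at 0.00321, the least.

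Other genes of the B lineage programme were described from 6 lists, of specification factors, cytokine receptor signalling, recombination and end joining, pre-B receptor signalling, committed B cell genes and early lymphoid progenitor genes. Of their 75 genes 69 were tested, 34 higher and 35 lower in KO, with a median log2 fold change of -0.01 against 0.00 over all tested genes. By edgeR 0 of the 69 passed after adjustment, and 6, or 8.70%, had an unadjusted p under 0.05 against 6.06% of all genes, 3 in each direction. DESeq2 called 3 of them, Id3 and Ccr9 included, and limma voom called 1.

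Among the 17 tested specification factors 6 were higher and 11 lower, with a median of -0.06. Id3, which encodes an inhibitor of E proteins, stood at 2.32, 3.52, 5.62 and 3.09 CPM in wild type, and the KO mice gave 11.3, 8.23, 7.47 and 9.45 CPM, without overlap. Its log2 fold change was 1.32, and its adjusted p was 0.0153 in DESeq2, 0.124 in limma voom and 0.367 in edgeR. Bcl11a, a factor needed for early lymphoid cells, stood at 170 ± 23.6 and 121 ± 21.6 CPM (log2 fold change -0.49, adjusted p = 0.746 by edgeR), and Ikzf2 and Mef2c gave -0.32 and -0.22. Without wild type replicate 1 Ikzf2 was -0.21 and Mef2c -0.14, and Mef2c was -0.09 without KO replicate 4. Tcf3, the E protein gene itself, gave -0.29, and Foxo1 and Spi1 gave -0.02 and -0.03, none of them past the test.

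In cytokine receptor signalling 3 of 10 genes were higher and 7 lower, none with an unadjusted p under 0.05, and the median was -0.06. Crlf2, Jak3, Il2rg and Pim1 gave log2 fold changes of -0.44, -0.40, 0.41 and -0.28, and Stat5a and Stat5b, which act below the interleukin-7 receptor, gave -0.09 and -0.15. Without KO replicate 3, Crlf2 gave -0.20, Jak3 -0.14, Il2rg 0.13 and Pim1 -0.10, and Il2rg gave 0.12 without wild type replicate 2 and 0.63 without wild type replicate 3. Omitting wild type replicate 4 brought Pim1 to 0.04, and omitting KO replicate 2 brought it to -0.49. In recombination and end joining 8 of 12 genes were higher, with a median of 0.18 and none with an unadjusted p under 0.05. Lig4, Nhej1, Hmgb2 and Poll gave -0.62, 0.32, 0.22 and 0.28. Omitting KO replicate 3 brought Lig4 to -0.37 and Poll to 0.43. Omitting KO replicate 4 brought Nhej1, Hmgb2 and Poll to 0.20, 0.12 and 0.16, and Hmgb2 was 0.35 without wild type replicate 1.

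In pre-B receptor signalling 9 of 16 genes were higher and 7 lower, with a median of 0.04. Bank1, an adaptor gene of B cells, stood at 9.53 ± 2.54 and 4.52 ± 1.78 CPM in wild type and KO (log2 fold change -1.07, adjusted p = 0.673 by edgeR). The surrogate light chain genes Igll1, Vpreb2 and Vpreb1 gave 0.84, 1.07 and 0.54, Grb2 gave 0.20 and the kinase genes Syk and Btk 0.01 and 0.08, none past the test. Omitting KO replicate 4 brought Igll1 to 0.45 and Vpreb2 to 0.71, and Grb2 was 0.11 without KO replicate 3. Of 12 committed B cell genes 7 were tested, 4 of them higher, with a median of 0.00. Bach2, Cr2 and Cd24a gave 0.40, -0.48 and -0.31. Without KO replicate 3 Cr2 was -0.22 and Cd24a -0.04, and Cd24a ranged from -0.50 to -0.16 when KO replicate 4, wild type replicate 4 or wild type replicate 1 was omitted.

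Of 11 early lymphoid progenitor genes 6 were higher and 5 lower, with a median of 0.03. Cd52, a gene for a small surface glycoprotein of lymphocytes, stood at 51.5 ± 8.33 and 82.8 ± 17.9 CPM in wild type and KO, without overlap (log2 fold change 0.69, adjusted p = 0.501 by edgeR). Ccr9, a chemokine receptor gene, held 18.2, 25.8, 19.5 and 4.22 CPM in wild type against 1.83 to 7.21 CPM in KO, with wild type replicate 4 inside the KO range. Its log2 fold change was -1.75, with an adjusted p of 0.558 by edgeR and 0.0419 by DESeq2. Ighm, the immunoglobulin mu gene, gave 0.42.

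**Figure D4:**
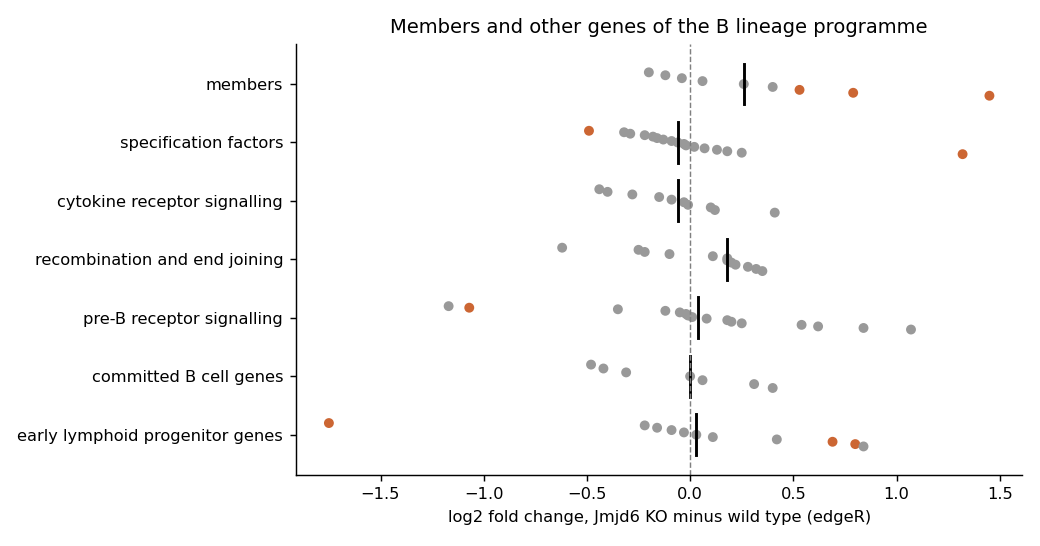
Log2 fold change (horizontal axis, Jmjd6 KO minus wild type, edgeR) of the tested members and of the 6 lists of other genes. Each point is a gene, orange where the unadjusted p was under 0.05, black ticks are list medians and the dashed line is the median of all tested genes; the 3 orange members lie to the right, while the other lists together hold 3 on each side.

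Markers of other cell types were set beside these values. The summed level of 12 mature B and plasma cell genes ranged from 398 to 651 CPM in wild type and from 412 to 1010 CPM in KO, most of it Ighm. Igkc and Jchain, abundant in plasma cells, ranged from 0 to 96.0 and 0 to 25.2 CPM in wild type and from 19.8 to 217 and 1.32 to 85.5 CPM in KO. Other genes of this list were not higher in KO. Sdc1 ranged from 27.2 to 64.2 CPM in wild type and from 30.8 to 45.4 CPM in KO. Cd74 ranged from 37.4 to 95.1 and from 31.8 to 80.6 CPM. Iglc1 stood at 60.3 CPM in KO replicate 3 and at no more than 0.532 CPM elsewhere. Ms4a1, which defines mature B cells, had 12 counts in all 8 libraries. By library, Igkc stood at 0.773, 92.4, 0 and 96.0 CPM in wild type and at 19.8, 217, 172 and 157 CPM in KO.

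The sum of 12 T and NK cell genes ranged from 196 to 318 CPM in wild type and from 360 to 477 CPM in KO, without overlap. Most of it was Nkg7, at 176 ± 45.7 and 316 ± 60.8 CPM, while Cd3e had 1 count in all libraries. Cd4 was also higher in KO without overlap, at 13 to 21.9 CPM against 4.32 to 11.5 CPM. Lck overlapped, at 54.8 to 84.5 CPM in wild type and 65.9 to 79.6 CPM in KO. The 10 plasmacytoid dendritic cell genes, Ccr9 among them, summed to 320 to 670 CPM in wild type and 289 to 377 CPM in KO. The 670 CPM were those of wild type replicate 1, where Ly6c2 held 230 CPM. Siglech, which defines those cells, held at most 2.33 and 0.852 CPM. Pacsin1 was lower in KO without overlap, at 0.229 to 0.775 CPM against 1.2 to 3.19 CPM. Cox6a2 leaned the other way, at 3.6 to 5.96 CPM in KO against 1.51 to 4.46 CPM. The 8 neutrophil genes summed to 718 to 4180 and 1170 to 1850 CPM, and the 8 monocyte and macrophage genes to 98.2 to 194 and 103 to 188 CPM. The 6 erythroid genes in the table summed to 26.9 to 464 and 43.2 to 75.7 CPM. The 6 megakaryocyte genes summed to 408 to 538 CPM in wild type and 338 to 405 CPM in KO, narrowly without overlap. The part of these other cells in the differences of Ly6d, Blnk and Cd79b was not tested.

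**Figure D5:**
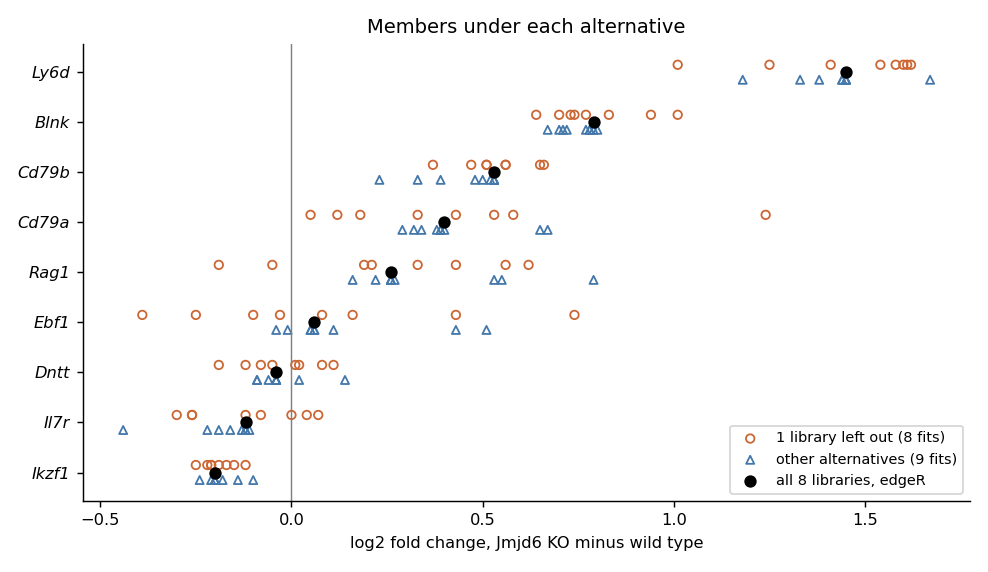
Log2 fold change (horizontal axis, Jmjd6 KO minus wild type) of each tested member with all 8 libraries (black), with 1 library left out (open circles) and under 9 other alternatives (triangles). Ly6d, Blnk, Cd79b and Cd79a are above 0 and Ikzf1 below 0 in every fit shown, whereas Rag1, Ebf1, Dntt and Il7r have fits on both sides of 0.

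When each library was omitted in turn, log2 fold changes were between 1.01 and 1.62 for Ly6d, 0.64 and 1.01 for Blnk and 0.37 and 0.66 for Cd79b. Their unadjusted p stayed under 0.05 by edgeR in each of these 8 fits, and the adjusted p was never under 0.05. In the sets of 6 libraries, Ly6d and Blnk kept an unadjusted p under 0.05 and Cd79b did not. Over the 9 other alternatives Ly6d lay between 1.18 and 1.67 and Blnk between 0.67 and 0.80.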

How the data were processed

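The authors deposited raw read counts, as whole numbers, for each gene symbol. HISAT2 and mm10 are named in the submitters' processing notes, which is as far as the sources used here go on alignment, counting, annotation and strand. Columns were matched to samples by genotype and replicate number. The main test was edgeR 4.0.16 (R 4.3.3) with its quasi-likelihood test, TMM scaling and filterByExpr (min.count 10, min.total.count 15), KO against wild type over 8 libraries with no covariate. P-values were adjusted by Benjamini-Hochberg over 13439 genes and called under 0.05. SE values were derived from the log2 fold change and its F statistic, intervals are at 95%, and log2 CPM used a prior count of 2. The script was tested on simulated counts. DESeq2 1.42.0, limma 3.58.1 (voom with sample weights) and other alternatives are given in the closing section. Exon lengths and gene positions came from GENCODE M21 (basic set), and windows before gene starts from RefSeq GRCm38.p6.

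Members and lists were chosen with earlier results of these data known. Named genes are the members, Jmjd6 and up to 4 genes per list with the smallest p, of which some are not reported here; Tcf3, Foxo1, Spi1, Stat5a, Stat5b, Vpreb1, Syk, Btk, Rag2 and the marker genes were named after their values were seen. P-values measure the spread between mice.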

Additional observations from a re-analysis of the deposited data

Results flagged for a closer look

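Ly6d in the KO group was marked because 1 library stood far from the others: the gap from KO replicate 4 to the nearest KO library was 0.897 of the group's range, above the 95% limit of Dixon's test for 4 samples. KO replicate 4 held 15 CPM of Ly6d and the other 3 KO libraries 5.76 to 6.71 CPM, all above the highest wild type library at 4.06 CPM. Among 19 groups examined this was the only 1 past the limit, and chance gives about 1 in 20.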

How the results depend on the processing

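The count of 0 members called by edgeR held under every alternative run, DESeq2 and limma voom included. Of the 9 or 10 members fitted, 2 to 4 had an unadjusted p under 0.05 by the test of each fit. The share of all genes at this threshold ran from 3.97% to 9.96%. The count was 2 by limma voom, where 9.96% of all genes passed. It was also 2 in the sets of 6 libraries, where 7.94% and 5.71% did. Over all genes the calls were 8, against 72 with DESeq2, 31 with the sample-weighted limma voom, 4 without wild type replicate 1 and KO replicate 3 together, 4 in the 6 libraries with Y-linked counts, and 2 to 8 with single libraries left out. With the replicate block 3 genes and 0 members were called. The labels do not pair the mice by replicate number. Same-numbered libraries correlated between -0.19 and 0.03 in their deviations from the group means, and libraries of different numbers between -0.29 and 0.42. With so few mice these correlations cannot show whether any mice were paired. Directions that turned were of genes with small differences. Ebf1 gave -0.01 with library size only and -0.04 with the replicate block, and -0.39 to 0.74 with single libraries left out. Dntt gave 0.14 without wild type replicate 1 and KO replicate 3 together, 0.02 in the 6 libraries with Y-linked counts, and -0.19 to 0.11 with single libraries left out. With single libraries left out Il7r gave -0.30 to 0.07, Rag1 -0.19 to 0.62 and Pim1 -0.49 to 0.04. Pim1 gave 0.02 by limma voom and 0.22 in the 6 libraries with Y-linked counts, and Cd24a gave 0.11 without wild type replicate 1 and KO replicate 3 together. The cause of these turns was not tested. Few counts limited Pax5, Ebf1 and Rag1, and without stated strand counting, overlapping genes may share reads.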

Other observations

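At the Rag locus the 2 recombinase genes stood at different levels. Rag2 (chromosome 2, 101624718 to 101632529, plus strand) held 5.96 CPM per kb of exon in wild type and 6.43 in KO, against 0.306 and 0.365 CPM per kb for Rag1. Rag2 held 13.3 to 25.3 CPM in the wild type libraries and 14.8 to 27.1 CPM in the KO libraries, with a log2 fold change of 0.11 (adjusted p = 0.943 by edgeR). The neighbouring gene B230118H07Rik (101560781 to 101649532, minus strand) spans both and shares 208 exon bases with Rag2 on the opposite strand and 80 with Rag1 on the same strand. B230118H07Rik stood at 64.3, 12.0, 49.5 and 45.0 CPM in wild type and 57.4, 58.2, 66.9 and 54.3 CPM in KO. Its low value in wild type replicate 2 fell in the wild type library with the least Rag1, whereas KO replicate 3, with the least Rag1 of all, held the most B230118H07Rik. Whether reads were shared among the 3 genes was not tested.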
